A study of Mus musculus with 31 samples.

Results

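The antioxidant and redox defence genes of Ba/F3 cells were 36 of the 41255 gene rows measured in 2 RNA fractions, total mRNA and polysomal RNA. They were taken as a list of gene symbols by function, with no threshold on a measured value though with earlier results of these data known, and fall into 8 roles: superoxide dismutation, peroxide removal, the thioredoxin system, glutaredoxins, glutathione synthesis and recycling, the regulator Nrf2 with inducible targets, NADPH supply and glutathione transferases. Ba/F3 is a mouse pro-B cell line that needs interleukin-3. The study compared cells that carry ribosomal protein RPL10 with the R98S change found in T-cell leukemia with cells that carry the normal protein (WT). In every clone of both groups endogenous Rpl10 was lowered with a short hairpin RNA and a human RPL10 cDNA was supplied by a retrovirus, R98S in clones 11, 13 and 35 and WT in clones 28, 29 and 36. Each clone grew from a single colony, so that the comparison rests on 6 clones, and libraries of one clone are not independent clones. Total mRNA gave 9 R98S and 8 WT libraries, and polysomal RNA, pooled from the part of a sucrose gradient where a transcript holds 2 or more ribosomes, gave 8 R98S and 6 WT libraries. Cultures carry a number from 1 to 3 that R98S and WT clones share. A further total mRNA library of WT clone 36 with number 1 was left out by the study because it grouped with R98S libraries in a principal component analysis and is not analysed here, so the calls in total mRNA are conditional on that selection.

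Cells continually form superoxide and hydrogen peroxide during respiration and folding of secreted proteins. Superoxide dismutases turn superoxide into hydrogen peroxide, which catalase, glutathione peroxidases and peroxiredoxins reduce to water. Peroxidases draw their electrons from small thiol carriers, glutathione and thioredoxin, which reductases recharge with NADPH from the pentose phosphate pathway. Glutathione is made from glutamate, cysteine and glycine, and its first and limiting step is run by a ligase with a catalytic subunit (Gclc) and a modifier subunit (Gclm). Many of these genes are induced through the transcription factor Nrf2 (Nfe2l2), which Keap1 marks for degradation until oxidants or electrophiles modify Keap1. Hematopoietic cells, and red cell precursors in particular, are rich in peroxiredoxins and glutathione peroxidase.

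Nrf2 binds a DNA element whose core is read as TGACNNNGC, and this core was searched on both strands of the RefSeq promoter windows (GRCm38.p6) that run from 250 bases before to 50 bases after a transcript start. Windows were found for 32 of the 36 members, and 9 of them (28.12%) held the core: G6pdx, Gclm, Mgst1, Nfe2l2, Pgd, Prdx1, Sod1, Srxn1 and Txnrd1. Among all 27025 genes with a window the share was 13.99%, and among all 32851 windows it was 12.39%. Prdx6, Gclc, Gsr and Hmox1 had no window. The core can overlap TGACTCA, the letters bound by AP-1, as it does in the match of Prdx1. The matches of 3 members whose total mRNA passed the test between the genotypes (Gclm, Sod1, Prdx1), of the Nrf2 gene itself, and of Srxn1 and Txnrd1, which repair peroxiredoxins and recharge thioredoxin for them, are shown 5′ to 3′ on the strand that reads TGACNNNGC, with the matched core in capitals and 10 bases on either side. A match describes letters only, and the position is that of the printed stretch.
Gclm, chr3:122245413-122245441, minus strand: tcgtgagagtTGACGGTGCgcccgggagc
Sod1, chr16:90220696-90220724, minus strand: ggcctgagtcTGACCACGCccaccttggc
Prdx1, chr4:116685456-116685484, minus strand: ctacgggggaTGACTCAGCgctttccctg
Nfe2l2, chr2:75704885-75704913, minus strand: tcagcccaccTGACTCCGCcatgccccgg
Srxn1, chr2:152105542-152105570, minus strand: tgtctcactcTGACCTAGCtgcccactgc
Txnrd1, chr10:82859104-82859132, minus strand: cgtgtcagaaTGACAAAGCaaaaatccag

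Libraries held 8831180 to 22059792 reads on genes. A scale from R98S at 0% to WT at 100% was drawn over the genes whose total mRNA passed the test in these same libraries. On it R98S clones 13 and 35 with number 2 lay at 37.7% and 36.1%. The other R98S libraries lay between -17.1% and 3.38% and WT libraries between 84.9% and 107.0%. Within the groups these positions do not average to exactly 0% and 100%. Since the genes were picked for this difference, the genotypes lie apart on the scale in part by the choice. Of 12 markers of pro-B cells and the interleukin-3 receptor 6 were tested in total mRNA, with 3 higher and 1 lower. Ebf1, Pax5, Rag1, Igll1 and Vpreb1 stayed at or below 4.63 normalized counts in every total mRNA library. Cd79a was at 705.5 to 1293, Cd79b was higher in R98S by 0.87 (adjusted p = 0.00667) and Ptprc was lower, at −0.48 (adjusted p = 0.0646). Csf2rb, a chain of the interleukin-3 receptor, was at 28599 to 54062 in WT and 59641 to 119306 in R98S (log2 fold change 1.201, adjusted p = 1.78e-05). In lists of markers of other blood cells a single gene passed the test in total mRNA without the block in each of 3. The summed level of 5 macrophage markers was 183.3 to 3448 in R98S and 2567 to 6703 in WT, with Csf1r and Itgam at or below 6.86. Emr1 made up most of it, at a log2 fold change of −2.37 (adjusted p = 0.00152), while Cd68 was at 0.16 and Cd14 at −1.14, neither past the test. The sum of 5 erythroid markers was 451.7 to 1584 in R98S and 702.3 to 2716 in WT, which overlap. Hba-a1 was lower at −3.41 (adjusted p = 0.000484). Klf1 at −0.67 and Epor at −0.12 were not past the test, though Klf1 passed with the block (adjusted p = 0.0424). Hbb-bs, up to 167.1 in R98S and 1.85 to 12.0 in WT, did not pass either. The sum of 5 T cell markers was 81.4 to 149.8 in R98S and 29.6 to 69.0 in WT, with Cd3d higher at 1.85 (adjusted p = 0.000221), Lck at 0.80 (0.1001, and 0.0567 with the block), and Cd4 and Cd8a at or below 2.38. In polysomal RNA without the block, Csf2rb, Csf2rb2 and Cd79b were higher by limma, at 1.33, 1.33 and 1.49. Both tested T cell markers were higher there, Cd3d at 3.08 (adjusted p = 0.000766) and Lck at 0.83 (0.0228). Emr1 and Hba-a1 were lower there, at −2.10 (0.000590) and −2.68 (0.0327). The part of these differences in the results on antioxidant genes was not tested. In bulk RNA, fewer cells that express a gene and less of its RNA per cell cannot be told apart.

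Before the genotypes were compared, levels of the members were set against each other per kilobase of the principal transcript, as means of the WT total mRNA libraries. Txnip, the inhibitor of thioredoxin, stood highest at 6142 ± 2759 (SD, n = 8) normalized counts per kilobase, followed by Sod1 at 5820 ± 613, Gpx1 at 5150 ± 1188, Gpx4 at 4367 ± 1136 and Txn1 at 3973 ± 1009. These 5 overlapped within 1 SD of their neighbours in the order. Lowest of the tested members were Txnrd2 at 59.6 ± 17.2, Gss at 74.5 ± 30.0, Glrx2 at 123.3 ± 12.1 and Nqo1 at 129 ± 19.4. Prdx2 and Prdx1 were at 1905 ± 313 and 1745 ± 412 per kilobase in WT, and at 1017 ± 238 and 2610 ± 390 (SD, n = 9) in R98S, so that the order of the means differed between the genotypes. The remaining 3 members were near or below detection. Gpx7 had 0 reads in every library. Taken singly, a library with 0 reads allows a level of up to 3 reads by counting error alone. A level shared by all 31 libraries would have to be lower. Mgst1 had at most 1 read per library of total mRNA and 6 per polysomal library, and Prdx4 had at most 15 and 6. They did not reach the minimum mean of 10 normalized counts and were not tested.

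Total mRNA of R98S and WT cells was compared to ask which antioxidant genes differ in abundance. Gclm and Prdx2 were at 47.9% and 52.7% of their WT level in R98S, Nqo1 and Txnip were also lower, and Sod1 and Gpx1 were lower to a smaller extent, whereas Prdx1, Glrx2 and Txn2 were higher. Of 33 members tested, 9 passed an adjusted p below 0.1 (27.3%), 3 higher and 6 lower in R98S. Across all 11133 genes tested, 30.3% passed, 14.5% higher and 15.8% lower, so the share among the members was near that of the background. The median log2 fold change was −0.05 over the members and 0.00 over all genes. With culture number as a block, 14 members passed, 5 higher and 9 lower, beside 38.4% of all genes (18.5% higher and 19.9% lower). The clone means of the genotypes did not overlap for 16 of 33 members, beside 40.1% of all genes.

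**Figure D1:**
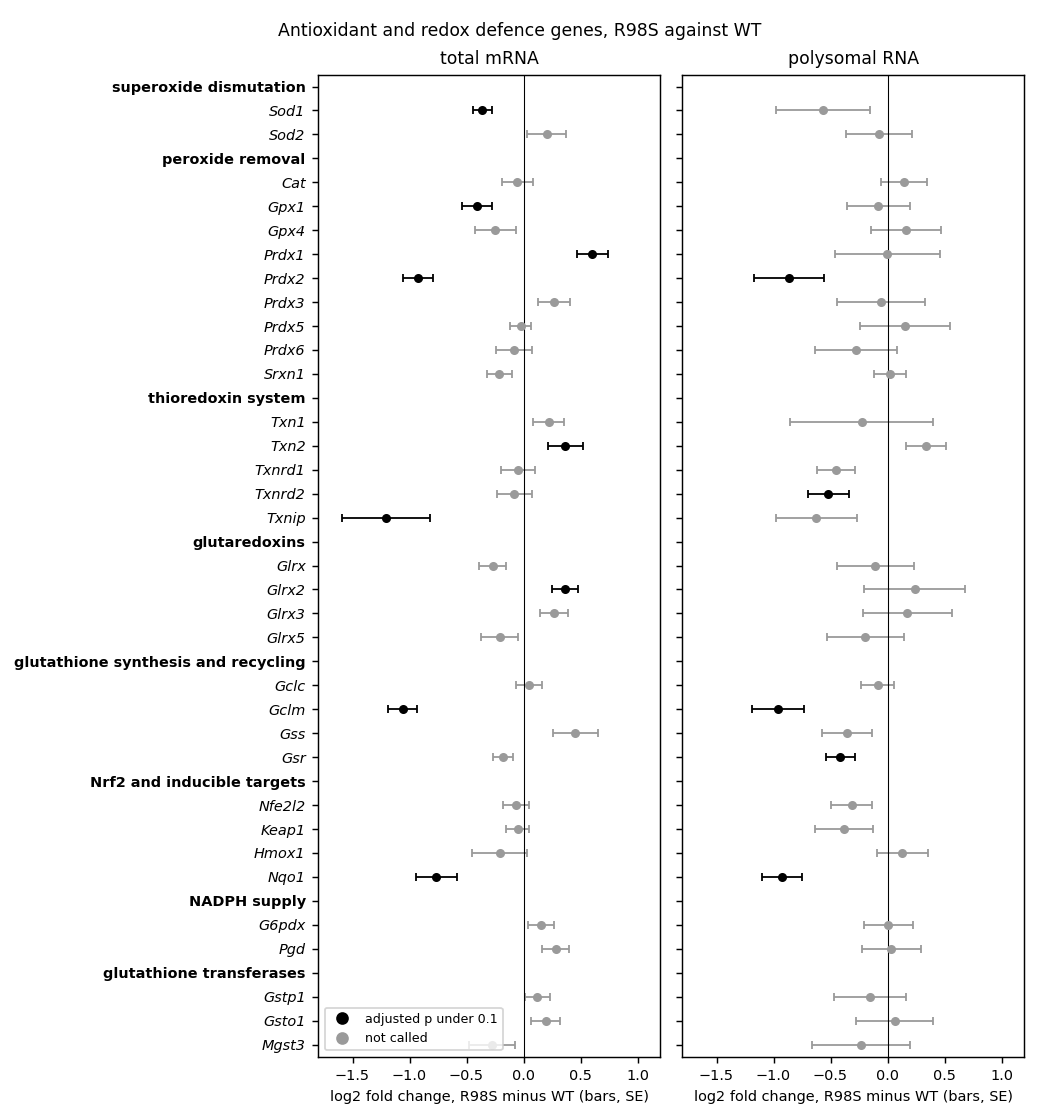
Log2 fold change of R98S over WT (x axis, with its standard error) for the 33 tested members, ordered by role, one panel for each RNA fraction, with black points for members that passed the test. The fits are those without culture number as a block. Gclm at −1.06 and Txnip at −1.21 lie farthest to the left in total mRNA and Prdx1 at 0.60 farthest to the right, while every black point in polysomal RNA lies to the left of 0.

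Sod1 (chr16:90220754-90226329, plus strand, GRCm38), the copper and zinc superoxide dismutase of the cytosol, was at 2917, 3755 and 4159 normalized counts in the lowest, median and highest WT library. In R98S the same values were 2286, 2938 and 3392. The groups overlapped, with 4 of 9 R98S libraries below every WT library. Sod1 fell to 77.9% of WT, with a log2 fold change of −0.36 (SE 0.09) and an adjusted p of 0.00535 by limma. The difference was −0.41, −0.35 and −0.36 within cultures numbered 1, 2 and 3, and it kept its call without any one clone or number. Sod2, the mitochondrial enzyme, differed by 0.20 (SE 0.17) and did not pass the test.

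Among the peroxide-removing enzymes, 1 of 9 tested members rose and 2 fell, beside 14.5% and 15.8% of all genes. Prdx2 (chr8:84969587-84974834, plus strand), a cytosolic peroxiredoxin abundant in red cells, was at 2608, 2888 and 4144 normalized counts in the lowest, median and highest WT library. R98S libraries ranged from 1247 over a median of 1468 to 2238. All 9 R98S libraries lay below all 8 WT libraries. The log2 fold change was −0.92 (SE 0.13, adjusted p = 6.54e-05), a level of 52.7% of WT. Clone means were 1537, 1581 and 1799 in R98S clones 11, 13 and 35 and 3095, 2845 and 3376 in WT clones 28, 29 and 36. Within the numbers the difference was −1.07, −0.73 and −0.94, and no single clone or number decided the call. Exons of Prdx2 share 11.5% of their bases with genes of the opposite strand, among them Rnaseh2a, at a log2 fold change of −0.52 in total mRNA, and 4.53% of its 50-base windows also occur in other genes.

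Prdx1 (chr4:116685544-116700822, plus strand), the closest relative of Prdx2 in the cytosol, moved the other way. WT libraries were at 2648, 4093 and 5304 normalized counts (lowest, median, highest), and R98S libraries at 4466, 6217 and 7081. In 7 of 9 R98S libraries Prdx1 was above every WT library, and the 2 exceptions were the libraries of clones 13 and 35 with number 2 that lay between the genotypes. Prdx1 rose to 152% of WT (log2 fold change 0.60, SE 0.14, adjusted p = 0.00400). The rise was 0.34, 0.53 and 0.82 within numbers 1, 2 and 3, and without number 3 it was 0.49 with an adjusted p of 0.108. In Prdx1, 8.29% of such windows recur in other genes.

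Gpx1 (chr9:108338903-108340343, plus strand), the main selenium-dependent glutathione peroxidase of the cytosol, was at 3715, 5791 and 6932 normalized counts in WT and at 3239, 4165 and 5189 in R98S (lowest, median, highest). The ranges overlapped widely, and 3 of 9 R98S libraries were below every WT library. Gpx1 fell to 75.4% of WT (log2 fold change −0.41, SE 0.13, adjusted p = 0.0328). WT clones differed among themselves, with means of 6684, 4172 and 5799 in clones 28, 29 and 36, against 4034, 4041 and 4197 in the R98S clones. The call was lost without WT clone 28 (−0.22, adjusted p = 0.298), without R98S clone 11 (adjusted p = 0.119), without number 2 (adjusted p = 0.113) and without number 3 (adjusted p = 0.158). With one mean per clone it was also lost (−0.42, adjusted p = 0.106). Without WT clone 29 the log2 fold change was −0.64 (adjusted p = 0.00111).

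The other tested peroxide-removing members did not pass the test in total mRNA. Cat, the peroxisomal catalase, differed by −0.05, Prdx5 by −0.03 and Prdx6 by −0.09. Mitochondrial Prdx3 was at 0.27. Gpx4, which reduces lipid peroxides in membranes, was at −0.25 with an adjusted p of 0.339, and at −0.26 with an adjusted p of 0.0928 with culture number as a block. Other genes share 34.7% of the windows of Gpx4, so its counts are uncertain. Srxn1, sulfiredoxin, which restores over-oxidized peroxiredoxins, was at −0.21 (adjusted p = 0.180), and at −0.25 with an adjusted p of 0.0142 with the block.

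In the thioredoxin system Txnip fell and Txn2 rose, while the cytosolic carrier Txn1 (log2 fold change 0.22), its reductase Txnrd1 (−0.05) and the mitochondrial reductase Txnrd2 (−0.08) did not pass the test in total mRNA. Txnip (chr3:96557957-96561883, plus strand), which binds and inhibits thioredoxin and is induced by glucose, varied most within a genotype. WT libraries were at 6520, 18752 and 28551 normalized counts, and R98S libraries at 1586, 7376 and 15383 (lowest, median, highest). The ranges overlapped over much of their length, and 3 of 9 R98S libraries lay below every WT library. Txnip fell to 43.3% of WT (log2 fold change −1.21, SE 0.39, adjusted p = 0.0310), and the differences within the numbers were −0.85, −1.06 and −1.50. Its call was lost without WT clone 28 (−1.01, adjusted p = 0.163) and without number 3 (−1.08, adjusted p = 0.121). An antisense gene, Gm15441, covers 19.4% of the exonic bases of Txnip but had a mean of 3.10 normalized counts.

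Txn2 (chr15:77915047-77929006, minus strand), the mitochondrial thioredoxin, was at 940.5, 1455 and 2375 normalized counts in WT and at 1479, 1987 and 2411 in R98S (lowest, median, highest). Only 1 R98S library stood above every WT library. Txn2 rose to 129% of WT (log2 fold change 0.37, SE 0.15, adjusted p = 0.0953), with differences of 0.02, 0.51 and 0.43 within the numbers. This call stood close to the threshold. It was lost without number 2 (0.26, adjusted p = 0.290), without number 3 (0.34, adjusted p = 0.343) and without R98S clones 11, 13 or 35 or WT clones 28 or 36 (adjusted p = 0.311, 0.175, 0.101, 0.291 and 0.102). By edgeR on whole reads the adjusted p was 0.121, and by DESeq2 it was 0.127. With no filter on low values it was 0.146.

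Glrx2 (chr1:143716338-143749676, plus strand), a mitochondrial glutaredoxin that uses glutathione to reduce protein disulfides, was the member of its role that passed the test in total mRNA. It was at 349.3, 409.6 and 486.6 normalized counts in WT and at 415.7, 482.7 and 725.5 in R98S (lowest, median, highest). The highest values were those of clones 11 and 13, and 4 of 9 R98S libraries stood above every WT library. Glrx2 rose to 129% of WT (log2 fold change 0.36, SE 0.11, adjusted p = 0.0283), by 0.38, 0.18 and 0.52 within numbers 1, 2 and 3. Leaving out R98S clone 11 (adjusted p = 0.128), WT clone 28 (adjusted p = 0.113), number 1 (adjusted p = 0.107) or number 3 (0.28, adjusted p = 0.208) ended the call. Cytosolic Glrx was at −0.27 (adjusted p = 0.104) and at −0.24 (adjusted p = 0.0394) with the block, and the iron-sulfur glutaredoxins Glrx3 and Glrx5 were at 0.27 and −0.21. Other genes share 3.90% of the windows of Glrx2 and 15.1% of those of Glrx3, so the counts of Glrx3 are uncertain.

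**Figure D2:**
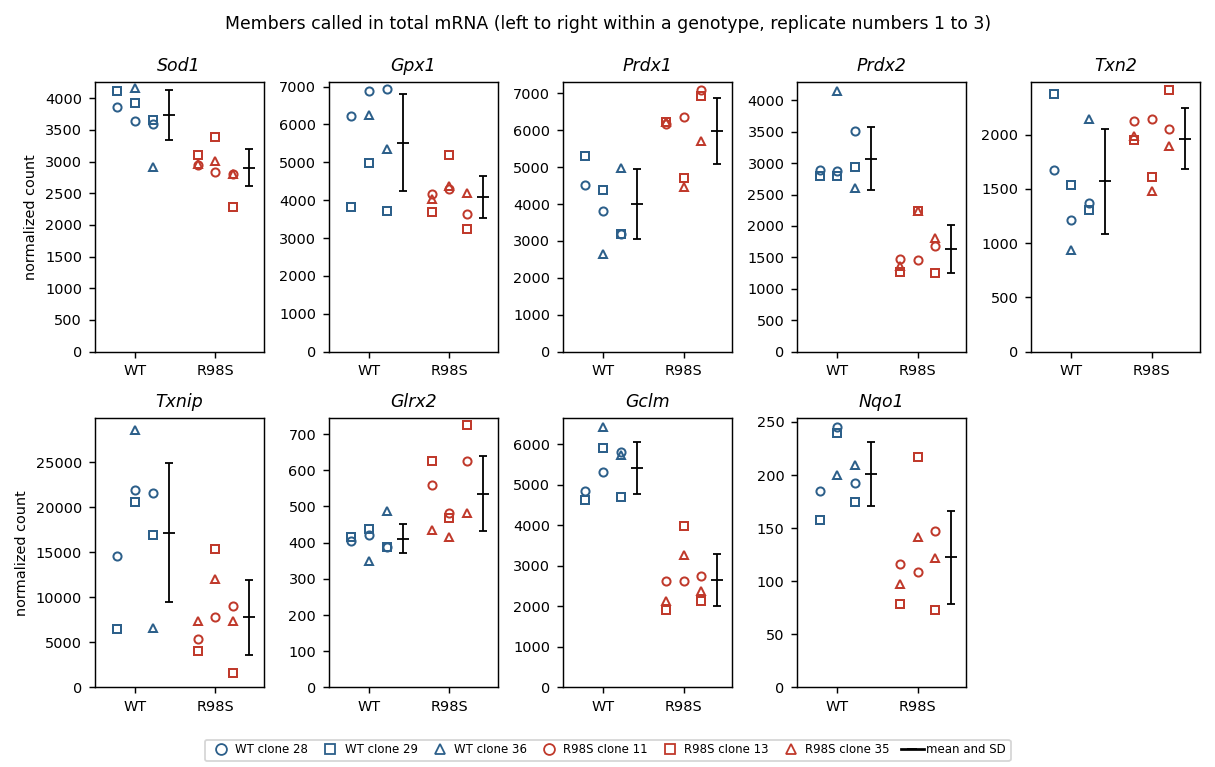
Normalized counts (linear axis) of the 9 members that passed the test in total mRNA, one open symbol per library shaped by clone and placed from left to right by number 1 to 3, with the mean and SD of each genotype in black. The R98S and WT symbols of Gclm and Prdx2 do not overlap, and those of the other 7 members do.

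Of the genes of glutathione synthesis and recycling, Gclm alone passed the test in total mRNA. Gclm (chr3:122245557-122270732, plus strand), the modifier subunit that raises the affinity of the ligase for glutamate, was at 4627, 5524 and 6419 normalized counts in the lowest, median and highest WT library. R98S libraries were at 1910, 2620 and 3989. Every R98S library was below every WT library, and the 2 highest R98S values, 3989 and 3264, belonged to clones 13 and 35 with number 2. Gclm fell to 47.9% of WT (log2 fold change −1.06, SE 0.13, adjusted p = 1.07e-05). The clones of a genotype were close to each other, at means of 2670, 2674 and 2590 for R98S and 5325, 5075 and 6071 for WT. Within the numbers the difference was −1.10, −0.85 and −1.16, and it passed the test under all 25 other settings tried. Of the windows of Gclm, 3.92% recur in other genes.

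Gclc, the catalytic subunit that Gclm joins, was at a log2 fold change of 0.05 (SE 0.12, adjusted p = 0.814) and did not pass the test. Gss, glutathione synthetase, was at 0.45 (adjusted p = 0.104), and at 0.42 with an adjusted p of 0.0801 with the block. Exons of Gss share 15.4% of their bases with genes of the opposite strand, Acss2, at a log2 fold change of 1.16, and Gssos2, with a mean of 0.230 normalized counts, and whether strand was used in counting is not given in the sources used here. Gsr, glutathione reductase, was at −0.18 (adjusted p = 0.157).

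Nqo1 (chr8:107388225-107403206, minus strand), a quinone reductase and a standard target of Nrf2, fell, while Nrf2 and Keap1 did not pass the test. Nqo1 was at 158.0, 196.3 and 245.1 normalized counts in WT and at 73.2, 116.0 and 216.7 in R98S (lowest, median, highest). The exception among the R98S libraries was clone 13 with number 2, at 216.7, and the other 8 of 9 lay below every WT library. Nqo1 fell to 58.8% of WT (log2 fold change −0.77, SE 0.18, adjusted p = 0.00524). By number the difference was −0.83, −0.60 and −0.80, and leaving out any one clone or number kept the call.

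Nfe2l2 (chr2:75675513-75704641, minus strand) was at 947, 1175 and 1337 normalized counts in WT and at 891, 1040 and 1459 in R98S (lowest, median, highest). The groups overlapped over nearly their whole range, and the log2 fold change was −0.06 (SE 0.11, adjusted p = 0.738). Keap1 (chr9:21229730-21239361, minus strand) was at 655.5, 882.5 and 1096 in WT and at 742.6, 852.6 and 1014 in R98S, with a log2 fold change of −0.05 (SE 0.10, adjusted p = 0.767). Nrf2 is controlled largely through the stability of its protein, which these libraries do not measure. Hmox1, heme oxygenase and another inducible target, was at −0.21 (adjusted p = 0.567), with its highest value of 3201 in WT clone 36 with number 2.

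NADPH supply and the glutathione transferases held no call in total mRNA. G6pdx, which opens the pentose phosphate pathway, was at 0.15, and Pgd, its next dehydrogenase, at 0.28 (adjusted p = 0.1001), which became 0.27 with an adjusted p of 0.0680 with the block. Gstp1 was at 0.12, Gsto1 at 0.19 and Mgst3 at −0.28. The counts of Gstp1 are uncertain, since other genes share 33.7% of its windows.

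Leaving out the 2 R98S libraries that lay between the genotypes, a setting chosen after seeing the data, moved all 9 called members farther from 0. These libraries were picked for lying towards WT, so a larger difference without them follows from the choice and is no support for the calls. Gclm was then at −1.20 (adjusted p = 2.45e-07), Prdx2 at −1.06 (adjusted p = 3.50e-06), Nqo1 at −0.93 (adjusted p = 0.000369) and Txnip at −1.50. Prdx1 was at 0.71, Txn2 at 0.46, Glrx2 at 0.44, Gpx1 at −0.47 and Sod1 at −0.40.

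Polysomal RNA was compared to ask which of these mRNAs differ in the amount that is bound by several ribosomes. Gclm, Nqo1 and Prdx2 were again lower in R98S, at 51.3%, 52.6% and 54.9% of WT, and the reductases Gsr and Txnrd2 were lower as well, at 75.0% and 69.8%. Of 33 members tested, 5 passed the test by limma (15.2%), 0 higher and 5 lower. At an unadjusted p below 0.05 there were 6 members, all lower, beside 21.7% of all genes. Among all 10707 genes tested 13.5% passed, 7.66% higher and 5.87% lower. On whole reads edgeR and DESeq2 called 5 and 6 members, again 0 of them higher. Over all genes edgeR called 1450 of 10707 (758 higher and 692 lower) and DESeq2 1911 of 10697 (997 higher and 914 lower). The median log2 fold change was −0.11 over the members and −0.02 over all genes. With culture number as a block 12 members passed, 3 higher and 9 lower, beside 30.9% of all genes (15.2% higher and 15.7% lower). Clone means did not overlap for 6 of 33 members, beside 27.2% of all genes. Culture number 1 holds 3 R98S libraries and only 1 WT library in this table. WT clone 36 has only a library of number 3 here and WT clone 28 has none of number 1. Polysomal clone means, and fits with one mean per clone, therefore mix clone with number. Number 3, in which many members stood higher in both genotypes, makes up a larger share of the WT than of the R98S libraries. The counts by direction and the median without the block, also those by edgeR and DESeq2, thus mix genotype with number. The part of number in the lack of higher members was not tested.

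Gclm in polysomal RNA was at 3615, 5527 and 7166 normalized counts in WT and at 1832, 2554 and 3933 in R98S (lowest, median, highest). In 6 of 8 R98S libraries it was below every WT library. The log2 fold change was −0.96 (SE 0.23, adjusted p = 0.0117), and it was −0.72, −0.92 and −0.95 within numbers 1, 2 and 3. Nqo1 was at 150.1, 218.5 and 266.5 in WT and at 81.9, 119.0 and 141.4 in R98S. All 8 R98S libraries lay below all 6 WT libraries. Its log2 fold change was −0.93 (SE 0.18, adjusted p = 0.00266), or −0.47, −0.90 and −1.05 by number. Both genes kept their calls without any one clone or number. In cultures of number 2 alone their adjusted p were 0.180 and 0.372.

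Gsr (chr8:33652523-33698163, plus strand), which regenerates reduced glutathione with NADPH, was at 1946, 2154 and 2624 normalized counts in WT and at 1436, 1689 and 1894 in R98S (lowest, median, highest). Its groups did not overlap, and clone means were 1739, 1679 and 1598 in R98S and 2331, 2085 and 2405 in WT. Gsr fell by 0.41 on the log2 scale (SE 0.13, adjusted p = 0.0474), with −0.28, −0.65 and −0.27 within the numbers. The adjusted p nevertheless passed 0.1 under other settings. It was 0.154 with quantile normalization (−0.32) and 0.226 with one mean per clone. It was 0.257 without number 1 and 0.277 without number 2, and 0.108, 0.124, 0.215, 0.116 and 0.102 without R98S clones 11, 13 and 35 and WT clones 28 and 36. Gsr and Nqo1 were the 2 members whose polysomal libraries did not overlap, beside 4.96% of all genes, as Gclm and Prdx2 were in total mRNA, beside 3.53%.

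Txnrd2 (chr16:18426384-18479073, plus strand), the mitochondrial thioredoxin reductase, was at 153.2, 192.6 and 281.5 normalized counts in WT and at 112.9, 138.2 and 173.3 in R98S (lowest, median, highest). It was below every WT library in 6 of 8 R98S libraries. Txnrd2 fell by 0.52 (SE 0.18, adjusted p = 0.0872), with −0.19, −0.57 and −0.56 within the numbers. Leaving out any of the 3 numbers (adjusted p = 0.268, 0.221 and 0.222), R98S clone 11 (0.249) or 35 (0.313), or WT clone 28 (−0.35, 0.315) or 36 (0.188) ended this call, as did one mean per clone (0.213) and no filter on low values (0.159). Without WT clone 29 Txnrd2 was at −0.84 (adjusted p = 0.0202). Cytosolic Txnrd1 stood at −0.45 with an adjusted p of 0.104, and at −0.44 with an adjusted p of 0.0482 with the block.

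Prdx2 in polysomal RNA was at 1842, 5008 and 7021 normalized counts in WT and at 1636, 2001 and 3477 in R98S (lowest, median, highest). Here 3 of 8 R98S libraries lay below every WT library, and the lowest WT value was that of clone 29 with number 1. The log2 fold change was −0.87 (SE 0.31, adjusted p = 0.0982). It was 0.03, −1.07 and −0.83 within numbers 1, 2 and 3, and −0.71 with an adjusted p of 0.00678 with the block. The unblocked call was lost without each number (adjusted p = 0.175, 0.251 and 0.119), without each R98S clone (0.150, 0.239 and 0.249) without WT clone 28 (−0.66, 0.341) or 36 (0.225) and with one mean per clone (0.102). With no filter on low values its adjusted p was 0.134, and with a minimum mean of 50 it was 0.110. Without WT clone 29 the log2 fold change of Prdx2 was −1.39 (adjusted p = 0.0124). Without only the number 1 library of that clone, a setting chosen after seeing the data, it was −1.10 (0.0202).

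**Figure D3:**
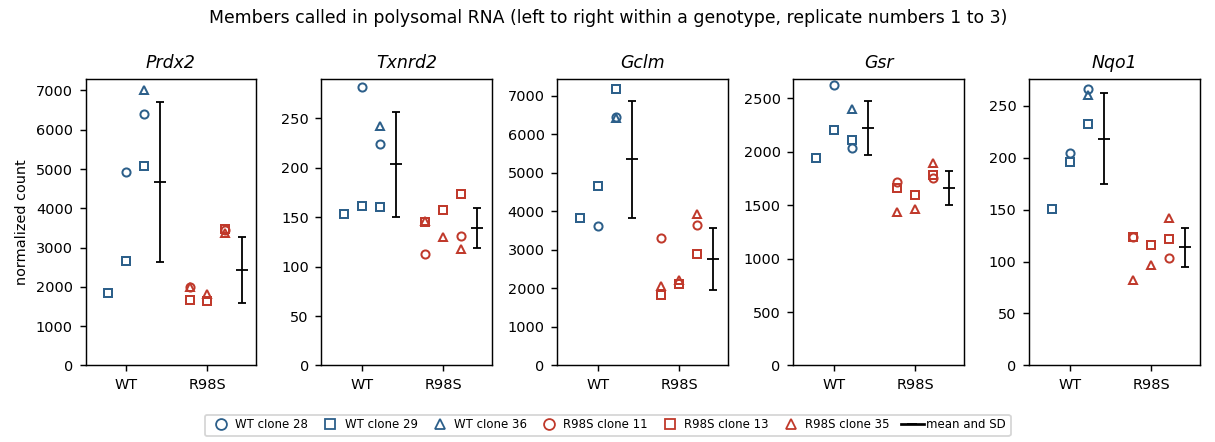
Normalized counts (linear axis) of the 5 members that passed the test in polysomal RNA, one open symbol per library shaped by clone and placed from left to right by number 1 to 3, with the mean and SD of each genotype in black. All R98S symbols of Nqo1 and Gsr lie below all WT symbols, and the others overlap.

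Without the R98S libraries of clones 13 and 35 with number 2, the polysomal values were −0.86 for Gclm (adjusted p = 0.0578) and −0.90 for Nqo1 (adjusted p = 0.0152). Gsr at −0.38 (0.163), Txnrd2 at −0.54 (0.171) and Prdx2 at −0.73 (0.282) then missed the threshold. With the block and without these libraries 5 members passed in place of 12, 1 higher and 4 lower, with Gsr at an adjusted p of 0.158, Txnrd2 at 0.180 and Prdx2 at 0.0757. Members called in total mRNA but not in polysomal RNA were Sod1 at −0.56 (adjusted p = 0.4934), Gpx1 at −0.08, Prdx1 at −0.00, Txn2 at 0.34, Txnip at −0.62 and Glrx2 at 0.24. The Txnip log2 fold change in polysomal RNA was −1.30 (adjusted p = 0.00632) without number 3. Standard errors were larger in polysomal RNA, with a median of 0.29 over the members against 0.13 in total mRNA. Beside Txnrd1, block calls that the fit without the block did not make were Glrx2 at 0.43 (adjusted p = 0.0507), Glrx3 at 0.33 (0.0590), Txn2 at 0.40 (0.0381), Keap1 at −0.45 (0.0294), Sod1 at −0.38 (0.0676) and Txnip at −0.76 (0.0355). Sod1, Glrx2 and Txn2 thus stood higher with the block than the −0.56, 0.24 and 0.34 without it, and Txnip stood lower than −0.62.

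Nfe2l2 in polysomal RNA was at 655.9, 764.9 and 898.8 normalized counts in WT and at 451.8, 588.5 and 1081 in R98S (lowest, median, highest). It was below every WT library in 6 of 8 R98S libraries, but the highest value of all, 1081, was that of R98S clone 13 with number 3. The log2 fold change was −0.32 (SE 0.18, adjusted p = 0.347), and it was −0.51 (adjusted p = 0.0770) without R98S clone 13 and −0.17 (adjusted p = 0.795) without R98S clone 35. Keap1 was at 402.9, 614.7 and 1263 in WT and at 336.0, 579.6 and 656.8 in R98S, with a log2 fold change of −0.38 (SE 0.26, adjusted p = 0.441). The other 19 uncalled members, among them Sod2 at −0.07, Cat at 0.14 and Gclc at −0.09, were between −0.36 (Gss) and 0.17 (Glrx3). The Gss log2 fold change in polysomal RNA was −0.64 (adjusted p = 0.0844) without R98S clone 13.

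Translational efficiency (TE) was taken in each of 14 matched cultures as log2 polysomal minus log2 total mRNA, with the 2 tables normalized separately, so that only differences between genotypes are read. The genotypes hold the culture numbers in unequal shares here too, so TE differences without the block mix genotype with number. By limma 0 of 33 members passed the test, beside 0.047% of 10627 genes, and 1 member, Gss, had an unadjusted p below 0.05, beside 6.46% of all genes. With edgeR on whole reads 0 members passed and 1 was below 0.05. With the block 0 members passed, beside 0.367% of all genes higher and 0.0659% lower, and 3 were below 0.05. The shares of all genes below 0.05 in the edgeR and block fits are not given here. Clone means did not overlap for Gss and Txnrd1, 2 of 33 members beside 17.1% of all genes. Member differences ranged from −0.81 to 0.47, with a median of −0.11 against 0.01 over all genes. Gclm (0.08), Prdx2 (−0.02), Nqo1 (−0.16) and Gsr (−0.21) did not pass the test, with standard errors of 0.26, 0.35, 0.26 and 0.16.

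Gss had TE values of −0.05, 1.17 and 1.92 in WT and −0.12, 0.30 and 0.83 in R98S (lowest, median, highest). The means were 1.12 ± 0.68 (SD, n = 6) and 0.32 ± 0.34 (SD, n = 8), and the ranges overlapped. The difference of −0.81 (SE 0.29) had an adjusted p of 0.607 by limma, and was 0.0122 before adjustment. It was 0.21, −0.68 and −1.13 within numbers 1, 2 and 3, and without WT clone 29 of number 1 it was −1.04 with an adjusted p of 0.0860. That library was left out after seeing the data and is the only WT culture of number 1, where the difference had the other sign, so the larger value follows from the choice and is no support for a call. The values of Acss2, which overlaps Gss, were higher in R98S by 1.16 (total mRNA) and 1.43 (polysomal RNA), and its part in the Gss counts was not tested. Txnrd2 and Txnrd1 were at −0.47 and −0.41. Txnip, at 0.47, was at −1.38, −0.50 and 1.44 within the numbers, so that its sign differed between cultures.

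Partner genes were set against each other within each library, as ratios of normalized counts that no scaling between libraries can alter. The pairs were chosen after their values were seen and are a description. The ratio of Gclm to Gclc in total mRNA was 2.66, 3.96 and 5.87 in WT and 1.33, 2.00 and 2.47 in R98S (lowest, median, highest), without overlap. In polysomal RNA it was 3.46, 5.54 and 8.75 in WT and 1.93, 2.83 and 4.81 in R98S, with overlap. The ratio of Prdx1 to Prdx2 in total mRNA was 0.639, 1.44 and 1.91 in WT and 2.00, 4.21 and 5.56 in R98S. Here too the libraries of the genotypes did not overlap, including those of clones 13 and 35 with number 2. In polysomal RNA the Prdx1 to Prdx2 ratio was 1.85, 3.96 and 5.06 in WT and 4.54, 5.79 and 9.69 in R98S. Txnip to Txn1 was 1.19, 5.08 and 8.11 in WT total mRNA and 0.261, 1.52 and 4.17 in R98S, with overlap. In polysomal RNA this ratio was 0.0657, 0.689 and 2.77 in WT and 0.0604, 0.588 and 0.817 in R98S, also with overlap.

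**Figure D4:**
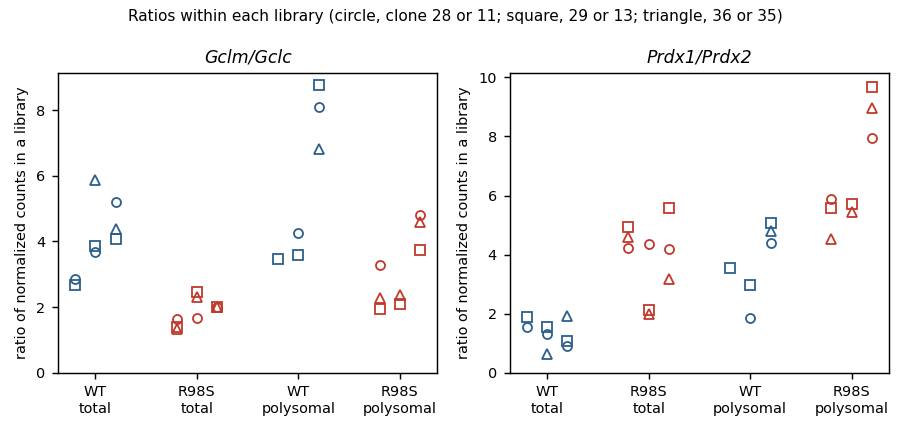
Ratio of Gclm to Gclc and of Prdx1 to Prdx2 within each library (linear axis), by RNA fraction and genotype, one symbol per library shaped by clone. In total mRNA the highest R98S ratio of Gclm to Gclc, 2.47, lies below the lowest WT ratio, 2.66, and the lowest R98S ratio of Prdx1 to Prdx2, 2.00, lies above the highest WT ratio, 1.91.

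Polysomal libraries with number 3 stood apart for many members, in both genotypes alike. Txn1 was at 21017 to 30097 normalized counts in the polysomal libraries of number 3 and at 3692 to 6573 in all others. On the log2 scale, number 3 minus the mean of numbers 1 and 2 was 2.28 in R98S and 2.57 in WT for Txn1, 1.63 and 1.90 for Prdx1, 1.30 and 1.78 for Sod1, 1.74 and 1.56 for Glrx2 and 1.45 and 1.72 for Mgst3. Values ran the other way for Keap1 (−0.82 and −0.81), Pgd (−0.44 and −1.10) and Txnip (−0.45 and −1.68). The shift was positive in both genotypes for 24 of 33 members and above 1 in both for 12 of 33, beside 12.6% of all 10707 genes. Its median over the members was 0.68 in R98S and 0.87 in WT, against −0.02 and −0.02 over all genes. In total mRNA the same difference of members lay between −0.73 and 0.49.

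Spearman's rho between shift and length of the principal transcript was −0.49 in R98S and −0.50 in WT over 33 members, which share their libraries and are not independent, so it is a description. This spread between numbers enters the polysomal standard errors when number is not a block. It also enters the fold changes there, since the genotypes hold the numbers in unequal shares. Prdx2, for one, was at −0.87 without the block and at −0.71 with it. For Txn1, Prdx1, Sod1 and Glrx2 the polysomal standard errors without the block were 0.63, 0.46, 0.41 and 0.45.

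**Figure D5:**
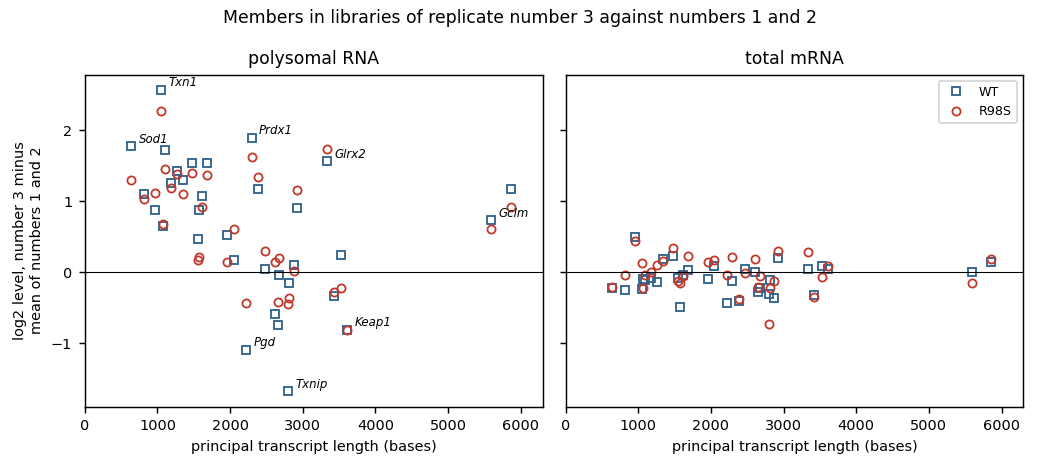
Value in cultures of number 3 minus the mean of numbers 1 and 2 (log2, y axis) against the length of the principal transcript (x axis), one point per tested member and genotype, in polysomal RNA and in total mRNA. In polysomal RNA short transcripts such as Txn1 reach 2.57, while in total mRNA members stay between −0.73 and 0.49.

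Genes around the 36 members were described from 7 lists with 122 genes, none of them members. Their counts without the block are read beside the 30.3% of all genes called in total mRNA and 13.5% in polysomal RNA, near which several of them lie. Their counts with the block are read beside 38.4% of all genes in total mRNA and 30.9% in polysomal RNA. Of 14 tested further Nrf2 targets 1 was higher and 5 were lower in total mRNA, led by Taldo1, transaldolase of the pentose phosphate pathway, at 0.67 (adjusted p = 6.19e-05), the exporter Abcc1 at −0.79 (0.000442) and the heme transporter Slc48a1 at −0.80 (0.00178). The median of that list was −0.11. With the block 1 was higher and 6 were lower. In polysomal RNA 0 of the 14 passed by limma, edgeR or DESeq2 and 3 had an unadjusted p below 0.05, while 1 was higher and 3 were lower with the block. Of 10 tested Nrf2 partners and adaptors 2 were higher in total mRNA, Cul3 at 0.28 (0.0633) and Btrc at 0.27 (0.0970), both parts of ubiquitin ligases that mark Nrf2, and in polysomal RNA 0 passed by limma and edgeR and 1 by DESeq2, with 1 at an unadjusted p below 0.05. With the block 2 of these were higher and 1 lower in total mRNA, and 1 higher (Btrc, adjusted p = 0.0478) and 2 lower in polysomal RNA, among them Rbx1 (0.0172).

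Other glutathione enzymes held the largest fold changes of these lists, with 2 of 15 tested genes higher and 5 lower in total mRNA and 2 higher and 2 lower in polysomal RNA. The block gave 2 higher and 6 lower, and 2 higher and 4 lower. Gstm2, a glutathione transferase, had means of 8.68 normalized counts in R98S and 208.2 in WT, a log2 fold change of −4.88 (adjusted p = 1.32e-07), and −6.12 (1.92e-06) in polysomal RNA. Oplah, which returns oxoproline to glutamate, was higher by 1.52 (0.000673) and 2.99 (0.000108), and Ggt5, a transpeptidase, was at −1.52 and −1.22. Further enzymes of NADPH supply gave 1 higher and 2 lower of 13, with Pgls at −0.38 (0.0216), Mthfd1l at −0.39 (0.0525) and Rpe at 0.35 (0.0940) in total mRNA. In polysomal RNA Mthfd2 was lower, at −0.89 (0.0893), and 1 of 13 passed. The block gave 1 higher and 4 lower in total mRNA, and 2 higher and 3 lower in polysomal RNA.

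Of 20 tested further selenoproteins and their synthesis factors 3 were higher and 1 was lower in total mRNA, with the selenocysteine factors Pstk at 0.43 (0.0165) and Sephs2 at 0.39 (0.0386), and 0 were higher and 1 was lower in polysomal RNA. With the block 3 were higher and 2 lower, and 0 higher and 2 lower. Among 19 thiol repair and thioredoxin-fold genes 2 were higher and 1 was lower in total mRNA, with Txndc9 at 0.36 (0.0406) and Tmx1, a membrane thioredoxin of the endoplasmic reticulum, at −0.52 (0.0280), and 1 was higher in polysomal RNA by limma but 0 by edgeR and 0 by DESeq2, with 2 at an unadjusted p below 0.05. Here the block gave 4 higher and 2 lower in total mRNA, and 3 higher and 3 lower in polysomal RNA. Of genes that produce oxidants, 1 of 5 tested was higher in total mRNA and 2 of 4 in polysomal RNA. Both were cytosolic subunits of the phagocyte NADPH oxidase, Ncf4 at 0.93 (0.000529) and 1.26 (0.000435), and Ncf1 at 1.18 (0.00112) in polysomal RNA. With the block 1 of 5 and 3 of 4 were higher. In TE 0 of 95 tested genes of these lists passed by limma or edgeR, and 6 had an unadjusted p below 0.05 (6.46% of all genes did).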

How the data were processed

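Total mRNA (17 libraries) and polysomal RNA (14 libraries) were taken from 2 deposited gene tables of 41255 rows. All columns matched a sample label. Per the labels and the methods of the study, the authors made stranded poly(A) libraries, trimmed each read by its first base (seqtk), filtered rRNA and tRNA reads out with Bowtie2, aligned to mm10 with TopHat2 2.0.11, kept primary alignments of sufficient mapping quality and counted reads on exons (HTSeq is named in the submitters' processing notes). The annotation and strand setting are not given in the sources used here. The deposited signal values are read counts that the authors divided by DESeq2 size factors, separately per table. They are called normalized counts here, and 100% of values came out as whole reads (8831180 to 22059792 per library) once divided by the step of their library, to a tolerance of 0.01 reads.

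Log2(value + 1) of genes with a mean of at least 10 was fitted for R98S against WT with limma 3.58.1 (R 4.3.3, trended variance), without a block. P-values were adjusted by Benjamini-Hochberg over all genes tested, with a threshold of 0.1. Fold changes are on this log2 scale, which understates changes of low genes. TE was fitted likewise on 14 matched cultures, and 3 total mRNA libraries had no polysomal partner. Samples with the same number deviated together (r = 0.62, 0.55 and 0.48 for numbers 1 to 3 of total mRNA, and 0.70, 0.67 and 0.87 of polysomal RNA), each above the 0.1 taken as pairing. In polysomal RNA numbers 1 and 2 correlated as strongly across (0.77 and 0.74) and only number 3 stood apart, so the values do not show that these 2 numbers pair separately. A fit with number as a block is given where it changed a call of a member, and as counts for the 7 related lists. P-values measure the spread between libraries of 6 clones.

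Alternatives were pseudocounts 0.5 and 5, no filter and a mean of 50, the block, clone means, and TMM and quantile scaling. Others were each number and clone left out, single numbers, and edgeR 4.0.16 and DESeq2 1.42.0 on whole reads. A further 3 settings that left out libraries were chosen after seeing the data. On whole reads edgeR called 3321 genes for total mRNA, 1450 for polysomal RNA and 1 for TE. No libraries were duplicates, with a chi-square of 4.56 per gene in the closest pair. The fits were tested on simulated data, whose outcome is not given here. Positions are those of GENCODE M21 (GRCm38). All members called in any comparison, Nfe2l2 and Keap1 were described per library, and at most 3 genes per other list and comparison were named. The members and lists were chosen with earlier results of these data known. The study's own test of TE was not used.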

Additional observations from a re-analysis of the deposited data

Results flagged for a closer look

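In 5 of 132 groups of libraries (33 members, 2 genotypes, 2 RNA fractions) the lowest or highest library lay farther from its nearest neighbour, as a share of the whole range, than Dixon's 95% critical value, which chance gives in about 1 in 20 groups. In total mRNA, Sod1 was lowest among R98S libraries in clone 13 with number 3 (2286 normalized counts, share 0.512) and lowest among WT libraries in clone 36 with number 3 (2917, share 0.583). Prdx3, a mitochondrial peroxiredoxin, was highest among R98S libraries in clone 13 with number 3 (4316, share 0.496). Glrx was lowest among WT libraries in clone 29 with number 1 (575.0, share 0.574). In polysomal RNA, Gpx1 was highest among R98S libraries in clone 13 with number 3 (8954, share 0.608). R98S clone 13 with number 3 thus accounted for 3 of the 5. A test by limma of whether the genotype difference itself differed between culture numbers called 0 members in total mRNA and in polysomal RNA. Over all genes it called 0 of 11133 and 3 of 10707. In each fraction 3 members had an unadjusted p below 0.05, and the share of all genes below 0.05 is not given here.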

How the results depend on the processing

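The 9 members called in total mRNA kept their direction under all 25 alternatives fitted, and the 5 called in polysomal RNA kept theirs under all 24, although the difference of Prdx2 within number 1, which was not fitted, was 0.03. In total mRNA the number of members called was 9, and it was 14 with culture number as a replicate block, 4 to 12 when a number was left out and 5 to 11 when a clone was left out. The 4 came without number 3 and the 5 without WT clone 28. Within cultures of numbers 1, 2 and 3 alone it was 6, 1 and 3, where fewer libraries were used. In polysomal RNA the number was 5, and it was 12 with the block, 3 with no filter on low values, 2 with clone means, 2 to 4 when a number was left out and 2 to 6 when a clone was left out. It was 2 without R98S clones 11 or 35 or WT clones 28 or 36, 2 without R98S clones 13 and 35 of number 2, 0 within number 2 alone, and 7 within number 3 alone, 2 of them higher. With the block and without those 2 libraries of number 2 it was 5 in polysomal RNA, where Gsr and Txnrd2 lost their calls, and 13 in total mRNA. In TE the number was 0, and it was 1 without WT clone 29 of number 1, namely Gss. Apart from fits with fewer libraries, the cause of these differences was not tested. With all libraries, every call made without the block was kept with it. Fits within number 1 were not run for polysomal RNA and TE, which have 1 WT library there. Mgst1, Prdx4 and Gpx7 fell below the filter and were not tested.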
